A study of Mus musculus with 18 samples.

Results

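The genes of cholesterol and fatty acid synthesis were followed over a day after axotomy in cultured mouse sensory neurons. The set was a list of 32 genes chosen by name, out of 47643 genes in the count tables. It held 7 genes of the mevalonate steps, 10 of the steps from squalene to cholesterol, 6 regulators and sterol carriers, and 9 genes of fatty acid synthesis and desaturation. All 32 passed the expression filter and were among the 13771 genes tested, so no member was lost.

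Cells make cholesterol from acetyl-CoA by way of mevalonate, isoprenoids, squalene and lanosterol, and make fatty acids from the same acetyl-CoA through malonyl-CoA. Both pathways are under the SREBP transcription factors, which are made as membrane proteins of the endoplasmic reticulum. When membrane sterol is low, the escort protein SCAP carries SREBP to the Golgi, where proteases free the part that enters the nucleus. When sterol is high, INSIG proteins hold the complex back. A neuron that extends an axon needs new membrane, and sensory neurons both make lipid themselves and take it up from glia.

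Dorsal root ganglia of E13.5 embryos of CD-1 mice were grown as eDRG spot cultures, in which the cell bodies lie in a central spot and the axons radiate outward, and were treated with the mitotic inhibitor FDU. Uninjured control cultures were collected at DIV7. In the other cultures the axons were cut with a blade, and RNA was taken 1, 3 or 8 hours post-injury (HPI), or at 16 or 24 HPI. Each of the 6 groups had 3 libraries, 18 in all. The labels name no transgene or deletion in any group. One control group served all time points, so time after injury and time in culture cannot be told apart. The labels do not say whether replicates of a group came from separate dissections. The p-values of the main model therefore measure only the spread between these libraries that is left once time point and replicate number are fitted. Total RNA was depleted of rRNA, and 9478891 to 23082327 counts per library fell on genes.

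The sensory neuron markers Tubb3, Avil and Calca were at 2961 ± 391, 743 ± 129 and 257 ± 218 normalised CPM (counts scaled to library size; mean ± SD, n = 3) in control. Markers of satellite glia (Fabp7, Kcnj10, Cdh19) summed to between 0.486 and 4.44 CPM, and the group means of the Schwann cell and glial markers Egr2, Gfap and Sox10 were between 0.0577 and 1.03 CPM. Mbp, also a Schwann cell marker, was at 108.7 CPM in control. The library of replicate 2 at 8 HPI was the shallowest. In such bulk samples, fewer cells of a type and less RNA per cell cannot be told apart.

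Promoter windows of 250 bases before and 50 bases after the start were given by RefSeq (GRCm38.p6) for 25 of the 32 members. No window was at hand for Fdps, Fdft1, Sqle, Stard4, Scd1, Scd2 and Fads1. The windows were searched on both strands for letters known to be bound by SREBP and its partners. The sterol regulatory element was spelled TCACNCCA, or TCACNCCAC in a longer form that contains it. The shorter form was found in 3 of 25 members (Hmgcs1, Msmo1 and Srebf2) and in 4.97% of all genes with a window (4.48% of the tested genes with one), and the longer form in 1 of 25 (Hmgcs1) against 1.44% (1.4%). CCAAT, the box of the partner factor NF-Y, was found in 19 of 25 members and in 41.1% of all genes with a window, or 42.8% of the tested genes with a window. It was missing from the windows of Acat2, Scap, Acaca, Elovl6, Fads2 and Lpin1. The E box CACGTG was found in 5 of 25 (Hsd17b7, Sc5d, Dhcr7, Scap and Insig1) against 8.09% of all genes with a window, or 11.8% of the tested genes with a window, and the GC box GGGCGG in 20 of 25 against 38.2%, or 69.7% of the tested genes with a window. Matches are letters in these windows only and do not show binding.

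The bases before the start are shown for the genes whose windows held the sterol regulatory element spelling (Hmgcs1, Srebf2, Msmo1), and for 2 members that changed in the time course and whose windows held the NF-Y box but neither spelling of that element (Insig1 and Fasn). Capitals mark TCACNCCA and CCAAT on either strand, so that CCAAT on the opposite strand reads ATTGG. For Msmo1 the match lies in the first exon, a 5′ UTR, of a GENCODE vM21 transcript (Msmo1-201), and only the bases around it are given. In Fasn, matches on both strands overlap. The stretches are chr13:119690101-119690350 (Hmgcs1, plus strand), chr15:82147019-82147180 (Srebf2, plus), chr8:64733737-64733766 (Msmo1, minus), chr5:28071162-28071362 (Insig1, plus) and chr11:120824548-120824797 (Fasn, minus), each written 5′ to 3′ on the strand of the gene.
Hmgcs1: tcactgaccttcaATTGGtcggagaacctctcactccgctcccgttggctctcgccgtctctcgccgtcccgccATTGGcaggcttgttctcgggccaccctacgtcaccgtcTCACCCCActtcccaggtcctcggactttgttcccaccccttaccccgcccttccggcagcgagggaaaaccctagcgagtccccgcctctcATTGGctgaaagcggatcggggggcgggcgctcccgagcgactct
Srebf2: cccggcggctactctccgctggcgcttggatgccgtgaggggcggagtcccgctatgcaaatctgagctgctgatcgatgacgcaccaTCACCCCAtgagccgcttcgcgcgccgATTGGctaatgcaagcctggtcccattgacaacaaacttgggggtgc
Msmo1: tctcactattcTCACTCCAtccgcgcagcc
Insig1: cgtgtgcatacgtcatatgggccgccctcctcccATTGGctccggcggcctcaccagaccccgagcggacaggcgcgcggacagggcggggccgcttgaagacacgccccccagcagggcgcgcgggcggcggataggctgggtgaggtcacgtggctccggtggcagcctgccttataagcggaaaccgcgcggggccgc
Fasn: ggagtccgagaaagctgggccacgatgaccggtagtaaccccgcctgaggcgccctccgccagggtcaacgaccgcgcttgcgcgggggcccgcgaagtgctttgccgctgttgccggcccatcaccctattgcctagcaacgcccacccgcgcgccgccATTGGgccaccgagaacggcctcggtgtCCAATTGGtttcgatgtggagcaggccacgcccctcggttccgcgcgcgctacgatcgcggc

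In the uninjured cultures the members covered a wide range of levels. Per kilobase of exon (RPKM, mean ± SD, n = 3), the highest was Scd2, a stearoyl-CoA desaturase that brain and nerve express strongly, at 705 ± 45.7. Hmgcs1, which makes HMG-CoA, followed at 405 ± 29.3, and Acly, which makes cytosolic acetyl-CoA, at 256 ± 26.9. The lowest was Insig2 at 4.43 ± 0.240. The regulators were less abundant per length than most of the enzymes: Srebf1 was at 8.29 ± 0.176 RPKM, Srebf2 at 28.6 ± 1.14 and Scap at 11.4 ± 1.20, while Insig1, itself a target of SREBP, was at 74.0 ± 8.80. Fdps, at 6.51 ± 0.916 RPKM, has near-identical copies elsewhere in the genome, and reads shared with them may be lost or misassigned, so its level is uncertain.

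**Figure D1:**
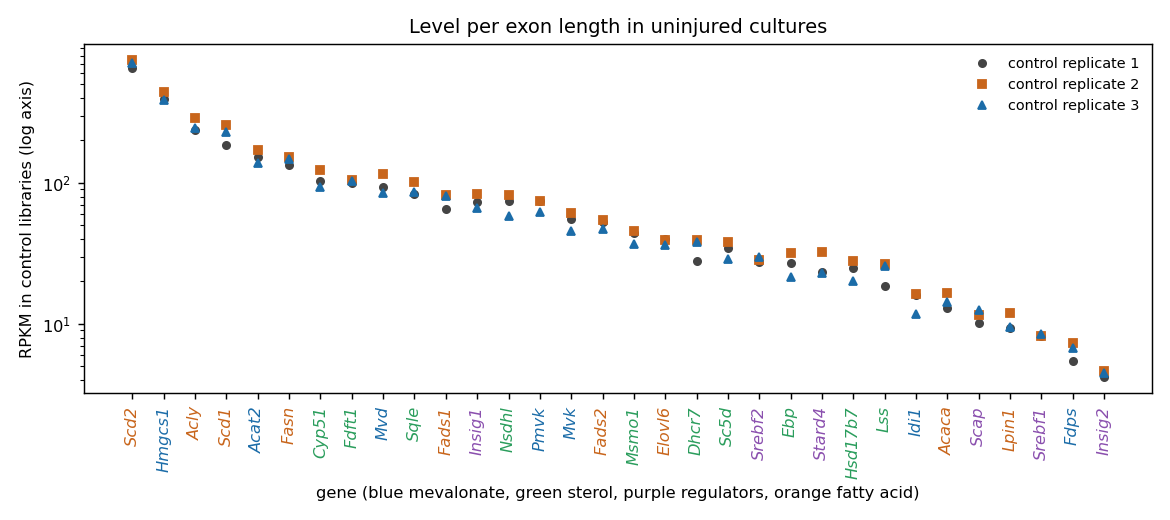
Level of each of the 32 members in the 3 control libraries, in RPKM on a log axis, ordered by mean, with gene names coloured by role. The replicates of a gene lie close together relative to the range from Insig2 (4.43 RPKM) to Scd2 (705 RPKM).

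Over the whole time course nearly all members changed. In an F test over the 5 time points with edgeR's quasi-likelihood model, 31 of 32 members had a Benjamini-Hochberg adjusted p under 0.05, beside 30.0% of all genes tested. The exception was Scap (adjusted p = 0.227). Most members were near or above control up to 8 HPI and below it at 16 and 24 HPI. The members' median log2 fold change against control was 0.04 at 1 HPI and 0.05 at 3 HPI, reached 0.09 at 8 HPI, and was then -0.19 at 16 HPI and -0.30 at 24 HPI. The median over all genes tested lay between -0.0022 and 0.0021 at these times. Of the 32 members, 26 had their lowest group mean at 24 HPI and 15 their highest at 8 HPI. The members summed to 15195 ± 1214 CPM (SD, n = 3) in control, 15622.5 ± 475 at 8 HPI, 12771 ± 699 at 16 HPI and 12046 ± 1044 at 24 HPI. All libraries of 16 and 24 HPI lay below those of control in this sum, at most 13488 against at least 14198.

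**Figure D2:**
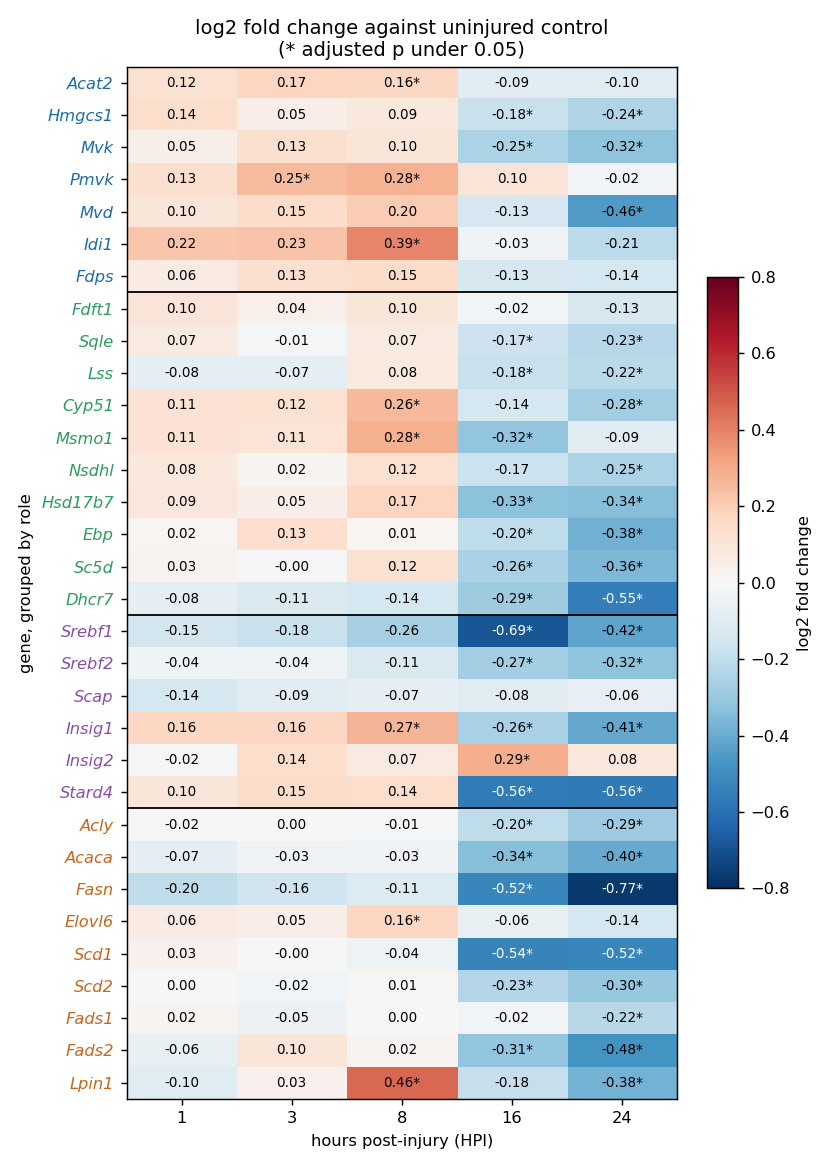
Log2 fold change of each member against control at the 5 time points (columns), with red for higher and blue for lower, rows grouped by role and an asterisk for an adjusted p under 0.05 in edgeR's quasi-likelihood test. Most rows turn from pale red at 8 HPI to blue at 16 and 24 HPI; Scap stays pale throughout, and Insig2 is higher at 16 HPI.

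In the first hours after axotomy few members moved. At 1 HPI edgeR's quasi-likelihood test called 0 members, beside 0.0944% of all genes higher and 0.182% lower. At an unadjusted p under 0.05 there were 7 members higher and 2 lower, and DESeq2 called 0 higher and 1 lower (Fasn). Here and below, shares of all genes are given for edgeR's adjusted calls with the replicate block only. Member counts at an unadjusted p, by DESeq2 or without the block have no such share beside them, and cannot be set against all genes. At 3 HPI only Pmvk, phosphomevalonate kinase, was called higher, beside 0.0436% of all genes, and 0 were called lower, beside 0.145%. At an unadjusted p under 0.05, 8 members were higher and 2 lower at 3 HPI, and DESeq2 called 2 higher and 0 lower. The Pmvk call at 3 HPI (log2 fold change 0.25 ± 0.0503 SE, adjusted p = 0.0442) was lost when control replicate 2 or 3, or 3 HPI replicate 2 or 3, was left out, and without the replicate block.

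At 8 HPI 8 members were called higher, beside 3.78% of all genes tested, and 0 lower, beside 3.90%. They were Acat2, Pmvk, Idi1, Cyp51, Msmo1, Insig1, Elovl6 and Lpin1, with log2 fold changes from 0.16 to 0.46. At an unadjusted p under 0.05, 10 were higher and 1 lower, and DESeq2 also called 8 higher and 0 lower. The rise rests on small differences between few libraries: 4 members were called when control replicate 1, control replicate 3 or 8 HPI replicate 1 was left out, and 5 without 8 HPI replicate 3. Without the replicate block, 0 were called. In the replicate 2 libraries alone, the median log2 ratio of the members to control at 8 HPI was 0.006, against 0.116 and 0.113 in replicates 1 and 3.

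At 16 HPI 19 members were called lower, beside 11.5% of all genes tested, and 1 higher (Insig2), beside 10.7%. At 24 HPI 23 were lower, beside 9.03% of all genes, and 0 higher, beside 5.99%. At an unadjusted p under 0.05 there were 26 lower and 0 higher at 24 HPI, and DESeq2 called 24 lower and 0 higher. In all, 18 members were lower at both times, 5 at 24 HPI only and 1 (Msmo1) at 16 HPI only. The changes were modest in size: no member was past 2-fold at any time point. Calls past 2-fold were rare among all genes too, at 0.0290% at 1 HPI and 0.0290% at 3 HPI. They made up 0.537% at 8 HPI, then 1.49% at 16 HPI and 0.821% at 24 HPI. The lack of such calls among the members is near these shares and is no result about the members. Without the replicate block, 5 members were called lower at 16 HPI (Srebf1, Fasn, Stard4, Srebf2 and Scd1) and 3 at 24 HPI (Fasn, Srebf2 and Fads2). Within each replicate number, the median log2 ratio of the members to control was between -0.256 and -0.137 at 16 HPI and between -0.351 and -0.198 at 24 HPI.

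Time points were also compared directly, as contrasts without the control group in the same model, whose spread and replicate terms all libraries share. From 8 to 16 HPI 26 members were called lower, beside 7.86% of all genes, and 0 higher, beside 7.30%. At an unadjusted p under 0.05 there were 28 lower and 1 higher, and DESeq2 called 27 lower and 0 higher. The members not called were Fdft1, Dhcr7, Srebf2, Scap, Insig2 and Fads1. Without the replicate block 4 were called lower (Lpin1, Stard4, Msmo1 and Insig1), and leaving out 16 HPI replicate 3 added 1 call higher, Insig2. From 16 to 24 HPI 5 members were called lower (Mvd, Dhcr7, Fasn, Fads1 and Fads2), beside 6.22% of all genes, and 1 higher (Msmo1), beside 3.59%. Only 2 of the 5 were called without 16 HPI replicate 1 or without 24 HPI replicate 3, and without the replicate block 0 were called in either direction.

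**Figure D3:**
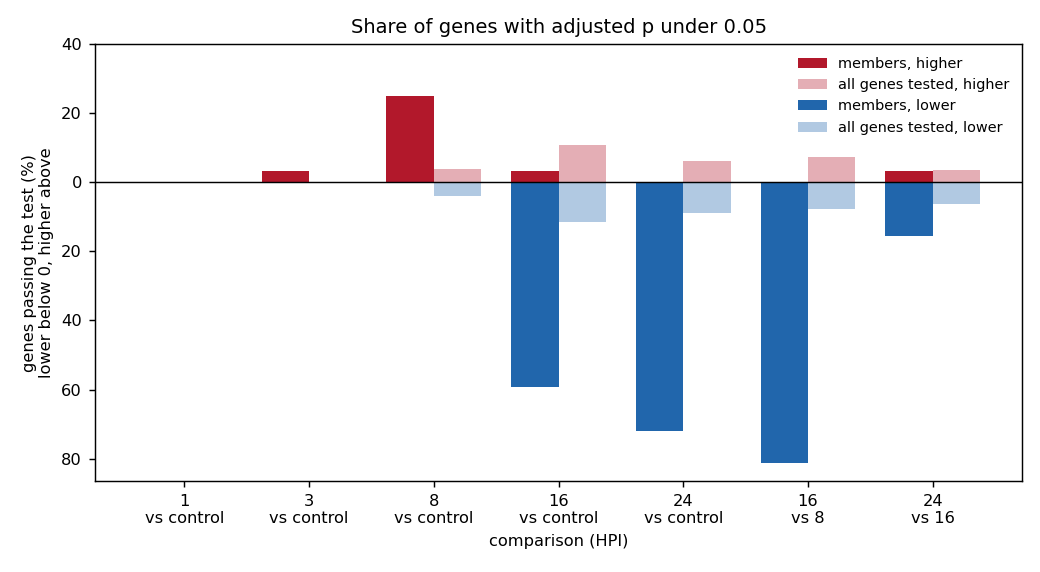
Percent of the 32 members (dark) and of all 13771 genes tested (pale) with an adjusted p under 0.05 in each comparison, higher above 0 in red and lower below 0 in blue. At 16 HPI, at 24 HPI and from 8 to 16 HPI the dark blue bars (19, 23 and 26 members) reach far below the pale ones, and at 8 HPI the dark red bar (8 members) is above the pale one.

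The 7 mevalonate genes all had positive fold changes at 1, 3 and 8 HPI. Of these, 3 were called higher at 8 HPI, 2 lower at 16 HPI, 3 lower at 24 HPI, and all 7 lower at 16 than at 8 HPI. The matching shares of all genes tested were 3.78%, 11.5%, 9.03% and 7.86%. Mvd, the decarboxylase that makes isopentenyl diphosphate, was at 175, 213 and 158 CPM in control and at 126, 153 and 119 CPM at 24 HPI. All its 24 HPI libraries lay below all control libraries, and the log2 fold change was -0.46 ± 0.0641 (adjusted p = 6.52e-05). Mvd was one of 5 members called lower at 24 than at 16 HPI (log2 fold change -0.32 ± 0.0642, adjusted p = 0.00254). Mvk, mevalonate kinase, was at 147, 163 and 122 CPM in control and at 111, 134 and 99.7 CPM at 24 HPI. Its groups overlapped, but each replicate was lower than its control, with a log2 fold change of -0.32 ± 0.0505 (adjusted p = 0.00019). Hmgcs1 was lower at 16 HPI (-0.18 ± 0.0518, adjusted p = 0.0146) and at 24 HPI (-0.24 ± 0.0518, adjusted p = 0.00315).

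Idi1 and Pmvk, picked out after their values were seen, were both above control without overlap at 8 HPI. Idi1, the isomerase that makes dimethylallyl diphosphate, was at 56.5, 57.2 and 41.2 CPM in control and at 75.0, 61.9 and 62.4 CPM at 8 HPI, with no overlap and a log2 fold change of 0.39 ± 0.0769 (adjusted p = 0.00345). At 16 HPI it was not called against control (-0.03 ± 0.0777, adjusted p = 0.833), and it was lower at 16 than at 8 HPI (-0.42 ± 0.0774, adjusted p = 0.000899). Pmvk was at 128, 128 and 107 CPM in control and at 141, 164 and 135 CPM at 8 HPI (0.28 ± 0.0508, adjusted p = 0.00198), and was not called at 16 or 24 HPI. Acat2, the thiolase that joins acetyl-CoA units, was called higher at 8 HPI only (0.16 ± 0.0488, adjusted p = 0.0423). Fdps, farnesyl diphosphate synthase, was not called against control at any time. Acat2, Fdps and Idi1 have near-identical copies elsewhere; the copies of Idi1 and Acat2 held at most 2.22% as many counts as the gene, and one pseudogene of Fdps, Gm3571, held 15.0%.

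Of the 10 sterol genes, 2 were called higher at 8 HPI (Cyp51 and Msmo1), 7 lower at 16 HPI and 8 lower at 24 HPI. The matching shares of all genes tested were 3.78%, 11.5% and 9.03%. All 10 had negative fold changes at 16 and at 24 HPI. Dhcr7, which catalyses the last reduction on the way to cholesterol, had the largest at 24 HPI, -0.55 ± 0.0748 (adjusted p = 4.5e-05). Cyp51, lanosterol demethylase, was at 457, 545 and 412 CPM in control, and at 401, 435 and 329 CPM at 24 HPI. The groups overlapped, and within replicates Cyp51 was higher at 8 HPI (0.26 ± 0.0521, adjusted p = 0.00392) and lower at 24 HPI (-0.28 ± 0.0521, adjusted p = 0.000972). Its exons overlap those of the antisense gene Akap9 by 166 bases, and counting by strand was not stated, so reads there cannot be assigned.

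Hsd17b7, a sterol ketoreductase, was at 127, 144 and 103 CPM in control and at 109.8, 107 and 78.3 CPM at 24 HPI, with overlapping groups and a log2 fold change of -0.34 ± 0.067 (adjusted p = 0.00163). From 8 to 16 HPI it fell by 0.50 on the log2 scale (adjusted p = 5.3e-05). Sc5d, lathosterol oxidase, was at 168, 186 and 139.6 CPM in control and at 139, 137 and 109 CPM at 24 HPI. Its 24 HPI libraries were all below control, with a log2 fold change of -0.36 ± 0.0582 (adjusted p = 0.000294). Sqle, squalene epoxidase, Lss, lanosterol synthase, and Ebp, the sterol isomerase, were lower at both 16 and 24 HPI, with log2 fold changes from -0.38 to -0.17. Nsdhl, a decarboxylating dehydrogenase, was lower at 24 HPI only (-0.25 ± 0.0664, adjusted p = 0.0127). Fdft1, squalene synthase, was not called against control; it shares 774 bases of exon with the antisense gene Ctsb.

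Msmo1, the sterol C4 methyl oxidase, was picked out after its values were seen. It was at 270.0, 278 and 227 CPM in control, and at 364, 308 and 271 CPM at 8 HPI. It was at 199, 213 and 206 CPM at 16 HPI, and at 266, 262 and 202 CPM at 24 HPI. The 16 HPI libraries lay below all control and 8 HPI libraries, and those of 24 HPI overlapped control. The log2 fold change against control was 0.28 ± 0.0692 at 8 HPI (adjusted p = 0.0147), -0.32 ± 0.0695 at 16 HPI (adjusted p = 0.00203) and -0.09 ± 0.0691 at 24 HPI (adjusted p = 0.415). The rise from 16 to 24 HPI (0.23 ± 0.0694, adjusted p = 0.0423) was seen in replicates 1 and 2 and not in replicate 3, and the call was lost without either of replicates 1 and 2 of either group.

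Among the 6 regulators and carriers, both SREBP genes fell. Srebf1, whose product drives mainly fatty acid genes, was at 46.2, 46.0 and 47.8 CPM in control and at 25.4, 27.1 and 34.4 CPM at 16 HPI. Every 16 HPI library was below every control library, and the log2 fold change of -0.69 ± 0.0835 (adjusted p = 5.71e-06) was the largest of any member at that time. At 24 HPI it was -0.42 ± 0.0808 (adjusted p = 0.00123). Its exons overlap those of the antisense gene Rai1 by 109 bases. Srebf2, whose product drives mainly cholesterol genes, was at 197, 205 and 214 CPM in control and at 149.9, 182 and 161 CPM at 24 HPI, again with no overlap (-0.32 ± 0.0553, adjusted p = 0.000469). Neither was called at 8 HPI, when some of the enzyme genes were called higher: the log2 fold changes were -0.26 ± 0.0823 for Srebf1 (adjusted p = 0.0526) and -0.11 ± 0.0555 for Srebf2 (adjusted p = 0.241).

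The INSIG genes moved in opposite directions at 16 HPI. Insig1 was at 225, 258 and 204 CPM in control, at 287, 274 and 262 CPM at 8 HPI and at 182, 188 and 147 CPM at 24 HPI. These 3 groups did not overlap: 8 HPI was above and 24 HPI below control. The log2 fold change was 0.27 ± 0.0708 at 8 HPI (adjusted p = 0.0223), -0.26 ± 0.0711 at 16 HPI (adjusted p = 0.0112) and -0.41 ± 0.071 at 24 HPI (adjusted p = 0.000577). The call at 8 HPI was lost without control replicate 1 or 3 or 8 HPI replicate 1 or 3, and the call at 16 HPI without control replicate 2 or 16 HPI replicate 1 or 2. The call at 24 HPI held without each of the control and 24 HPI libraries in turn.

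Insig2 was at 14.5, 16.1 and 15.5 CPM in control and 19.4, 19.965 and 17.2 CPM at 16 HPI. Its 16 HPI libraries were all above control (0.29 ± 0.0788, adjusted p = 0.0104), a call that was lost without 16 HPI replicate 1. Within a library, the log2 ratio of Insig1 to Insig2 counts was 3.89 ± 0.154 in control, 3.33 ± 0.185 at 16 HPI and 3.40 ± 0.194 at 24 HPI (mean ± SD, n = 3). This ratio does not depend on how libraries are normalised, and it was lower in 3 of 3 replicates at both times (exact permutation p = 0.1, the smallest that 3 against 3 allow, two-sided; 0.16 after Benjamini-Hochberg adjustment over 8 such tests). The log2 ratio of Srebf1 to Srebf2 counts went from -2.14 ± 0.0375 in control to -2.57 ± 0.219 at 16 HPI and -2.24 ± 0.0922 at 24 HPI, also lower in 3 of 3 replicates at both times (exact permutation p = 0.1, adjusted 0.16).

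Stard4, a carrier that moves sterol between membranes, was at 129, 179.8 and 129 CPM in control and at 94.0, 118 and 82.7 CPM at 24 HPI. All 24 HPI libraries were below control, and the log2 fold change was -0.56 ± 0.0896 (adjusted p = 0.000228), with -0.56 ± 0.0904 already at 16 HPI (adjusted p = 0.000121). From 8 to 16 HPI it fell by 0.70 on the log2 scale (adjusted p = 3.54e-05), the largest step of any member in that comparison. Scap was between -0.14 and -0.06 at all 5 time points and was not called.

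**Figure D4:**
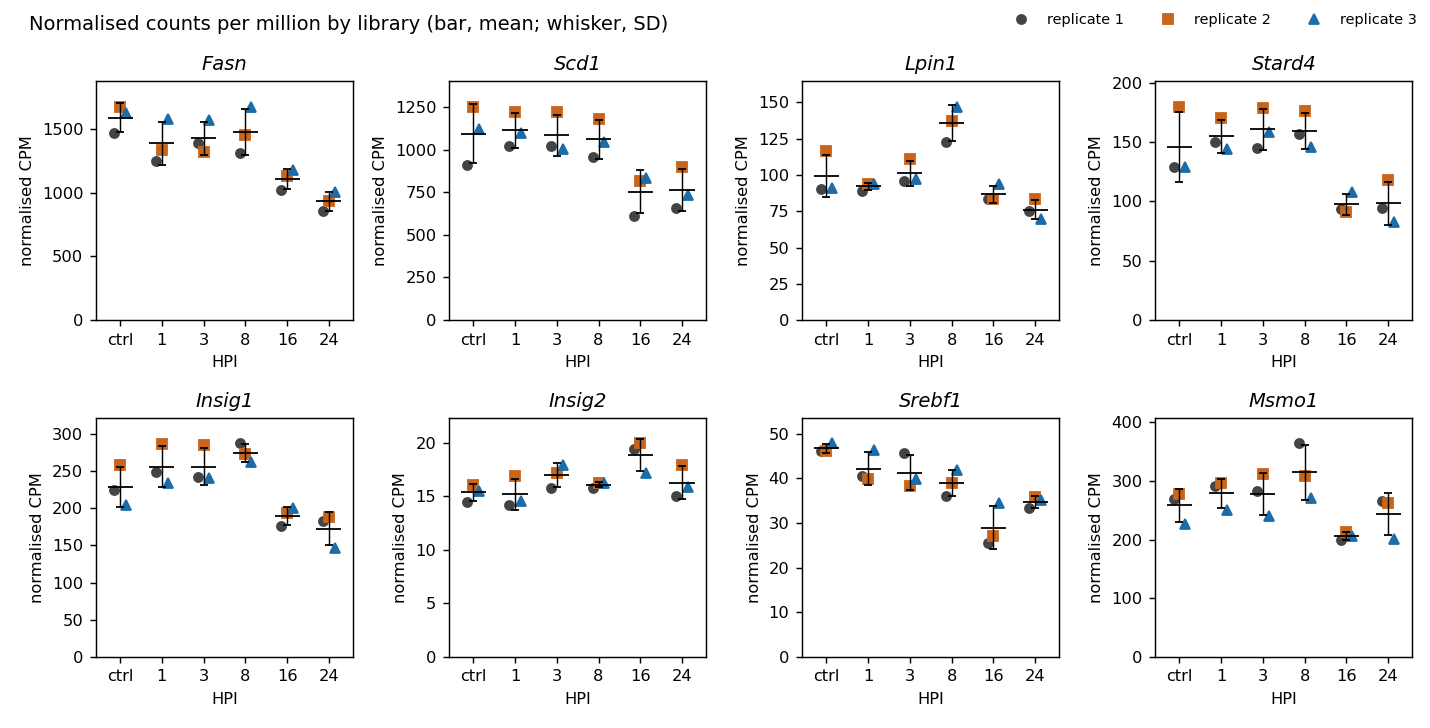
Normalised CPM in each of the 18 libraries for 8 members, with a marker for each replicate number, the group mean as a bar and the SD as a whisker, on axes that start at 0. Fasn, Scd1, Stard4 and Srebf1 drop at 16 HPI and stay below control at 24 HPI; Lpin1, Insig1 and Msmo1 are highest at 8 HPI; Insig2 is highest at 16 HPI.

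Of the 9 fatty acid genes, 0 were called at 1 or 3 HPI by edgeR's quasi-likelihood test (1 was at an unadjusted p under 0.05 at each time, Fasn). At these times at most 0.182% of all genes were called in either direction, so the 0 is near background. There were 2 called higher at 8 HPI (Elovl6 and Lpin1), 6 lower at 16 HPI and 8 lower at 24 HPI. The matching shares of all genes tested were 3.78%, 11.5% and 9.03%. Fasn, fatty acid synthase, had the largest change of all members. It was at 1466, 1676 and 1629.5 CPM in control and at 857, 937 and 1004 CPM at 24 HPI. The groups were far apart, and the log2 fold change was -0.77 ± 0.0578 (adjusted p = 4.54e-08). Its log2 fold change was already -0.20 ± 0.0575 at 1 HPI (adjusted p = 0.138, unadjusted p = 0.00195) and -0.16 ± 0.0574 at 3 HPI (adjusted p = 0.216, unadjusted p = 0.0124), negative in 3 of 3 replicates at both times and not called. At 1 HPI DESeq2's Wald test called it lower (-0.20, adjusted p = 0.0169). It was -0.52 ± 0.0576 at 16 HPI (adjusted p = 2.01e-06), and Fasn fell further from 16 to 24 HPI (-0.25 ± 0.0575, adjusted p = 0.00649). Acaca, acetyl-CoA carboxylase, which makes the malonyl-CoA that Fasn uses, was at 222, 282 and 245 CPM in control and at 182, 198 and 184 CPM at 24 HPI, with no overlap (-0.40 ± 0.0503, adjusted p = 1.86e-05). Acly was lower at 16 HPI (-0.20 ± 0.0497, adjusted p = 0.00469) and 24 HPI (-0.29 ± 0.0498, adjusted p = 0.000469). Elovl6, which elongates palmitate, was called only at 8 HPI (0.16 ± 0.0485, adjusted p = 0.0406).

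The desaturases, which place double bonds in fatty acids, lie as neighbours on chromosome 19, Scd1 with Scd2 and Fads1 with Fads2. Scd1 was at 908, 1252 and 1120.3 CPM in control and at 608, 816 and 834 CPM at 16 HPI, with no overlap (-0.54 ± 0.0674, adjusted p = 8.2e-06). Scd2 was at 3584, 4076 and 3901 CPM in control and at 3032, 3384 and 2959 CPM at 24 HPI, also with no overlap (-0.30 ± 0.0479, adjusted p = 0.000224). The log2 ratio of Scd1 to Scd2 counts within a library was -1.83 ± 0.141 in control, -2.13 ± 0.168 at 16 HPI (exact permutation p = 0.1) and -2.04 ± 0.149 at 24 HPI (exact permutation p = 0.2), with adjusted p of 0.16 and 0.2 over the 8 ratio tests. These tests do not use the pairing by replicate number; within replicates 1, 2 and 3 the change of the Scd1 to Scd2 ratio at 24 HPI was -0.2285, -0.2132 and -0.2104. The pair shares a stretch of 623 bases at 95.5% identity, and reads from it may be lost or misassigned.

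Fads2 was at 174, 180.2 and 154 CPM in control and at 113, 136 and 117 CPM at 24 HPI. The groups did not overlap (-0.48 ± 0.0508, adjusted p = 3.82e-06), and Fads2 was lower already at 16 HPI (-0.31 ± 0.0508, adjusted p = 0.000121). Fads1 was at 312, 393 and 385 CPM in control and at 298, 333 and 298 CPM at 24 HPI. Its groups overlapped, it was not called at 16 HPI (-0.02 ± 0.0564, adjusted p = 0.811), and the call at 24 HPI (adjusted p = 0.00979) was lost without control replicate 2 or without 24 HPI replicate 3. The log2 ratio of Fads1 to Fads2 counts was 1.10 ± 0.242 in control, 1.39 ± 0.198 at 16 HPI and 1.35 ± 0.0549 at 24 HPI. The exact permutation test gave p = 0.2 and 0.2 (adjusted 0.2). With 3 against 3 libraries this test cannot go below 0.1, and it does not use the pairing by replicate number. It therefore cannot decide whether the ratio changed. Within replicates the change of this ratio was positive in 3 of 3 at both times.

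Lpin1, a phosphatidate phosphatase that is also known as a transcriptional coregulator, had the largest rise of any member. It was at 90.6, 116 and 91.2 CPM in control, at 122, 137 and 147 CPM at 8 HPI and at 75.3, 83.3 and 69.9 CPM at 24 HPI. These 3 groups did not overlap. The log2 fold change was 0.46 ± 0.0741 at 8 HPI (adjusted p = 0.000627) and -0.38 ± 0.0749 at 24 HPI (adjusted p = 0.0017), and from 8 to 16 HPI Lpin1 fell by 0.64 on the log2 scale (adjusted p = 1.18e-05).

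**Figure D5:**
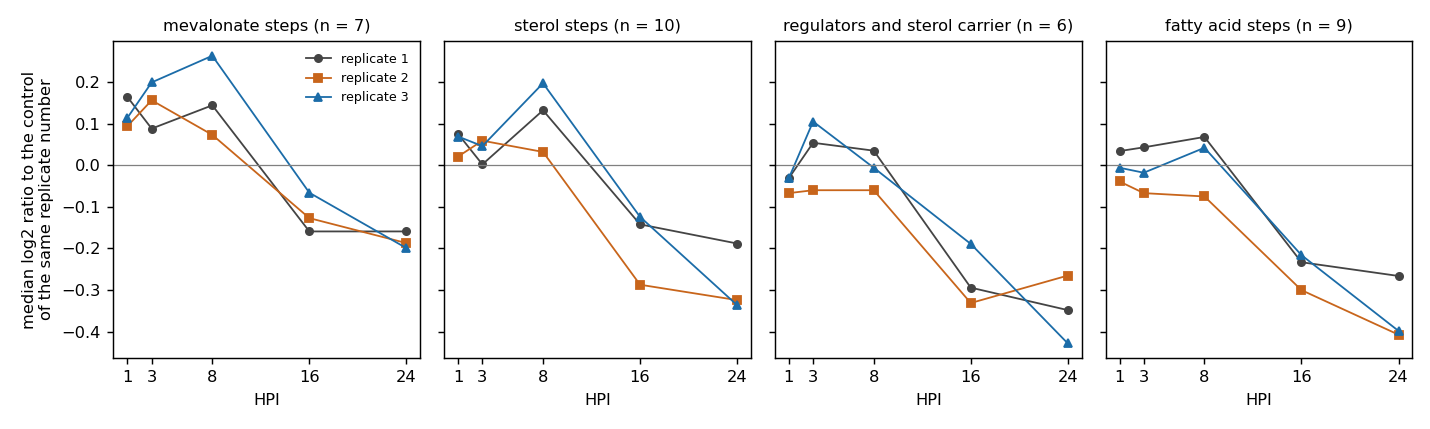
Median over the genes of each role of the log2 ratio to the control library of the same replicate number, by time point, with a line for each replicate number. In all 4 panels and for each replicate number the medians at 16 and 24 HPI are below 0, and the mevalonate genes are above 0 at 1, 3 and 8 HPI.

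Genes of the same pathways that were not in the list were taken from lists set by function. Lbr, a sterol reductase of the nuclear envelope, was higher at 8 HPI (0.25 ± 0.0768, adjusted p = 0.0492) and lower at 16 HPI (-0.22 ± 0.0787, adjusted p = 0.0489). Of 8 genes of SREBP processing and turnover, 1 was called against control at any time: Erlin1, a membrane protein that binds cholesterol and limits SREBP. It was higher at 16 HPI (0.66 ± 0.144, adjusted p = 0.00191), with log2 ratios in the 3 replicates from 0.233 to 1.25. Among all genes 10.7% were higher at 16 HPI, so this count is near background and is no result about the list. At 24 HPI no gene of the list was called, and the log2 fold changes in it ran from -0.21 to 0.09.

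Among genes of sterol uptake and transport, Vldlr, a lipoprotein receptor, was lower at 24 HPI (-0.34 ± 0.0728, adjusted p = 0.00292). Stard3, a sterol-binding protein of late endosomes, and Npc1, which exports cholesterol from them, were higher at 16 HPI (0.37 ± 0.0837 and 0.24 ± 0.0719, adjusted p = 0.00264 and 0.0191). Lrp1, also a lipoprotein receptor, was lower at 8 HPI (-0.42 ± 0.0916, adjusted p = 0.00769). Of 22 other tested genes of fatty acid synthesis, elongation and activation, 3 were higher at 8 HPI, 3 higher and 3 lower at 16 HPI, and 1 higher and 3 lower at 24 HPI. Of all genes, 3.78% were higher at 8 HPI, 10.7% higher and 11.5% lower at 16 HPI, and 5.99% higher and 9.03% lower at 24 HPI. The list's counts at 16 and 24 HPI are near these shares and are no result about the list. Elovl7, an elongase, was higher at 8 HPI (0.29 ± 0.067, adjusted p = 0.0103), 16 HPI (0.59 ± 0.0652, adjusted p = 2.01e-06) and 24 HPI (0.24 ± 0.0655, adjusted p = 0.0153). Elovl1, also an elongase, was higher at 8 HPI (0.22 ± 0.0651, adjusted p = 0.0396) and 16 HPI (0.24 ± 0.0642, adjusted p = 0.0104). Acsl3, an acyl-CoA synthetase, was lower at 16 HPI (-0.41 ± 0.0561, adjusted p = 2.17e-05) and 24 HPI (-0.39 ± 0.0559, adjusted p = 7.5e-05), Acsl6 at 16 HPI (-0.26 ± 0.0584, adjusted p = 0.00256) and Elovl5 at 24 HPI (-0.29 ± 0.0476, adjusted p = 0.000308).

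Some markers moved with the late fall of the members. Tubb3, neuronal tubulin, was at -0.40 ± 0.052 on the log2 scale at 16 HPI (adjusted p = 1.09e-05) and -0.37 ± 0.052 at 24 HPI (adjusted p = 6.79e-05) while Avil and Calca were not called against control at any time. Tubb3 was at 2961 ± 391 CPM in control, 2241 ± 329 at 16 HPI and 2292 ± 304 at 24 HPI. The fibroblast gene Dcn rose from 0.571 CPM in control to 2.47 at 16 HPI and 2.80 at 24 HPI. The other fibroblast markers, Col1a1 and Col3a1, were not called at these times by edgeR's quasi-likelihood test. Their adjusted p was 0.342 and 0.605 at 16 HPI, and 0.581 and 0.663 at 24 HPI. The 3 fibroblast markers (Col1a1, Col3a1, Dcn) summed to at most 13.9 CPM in any library. The myeloid gene Cd68 rose from 0.870 CPM in control to 1.72 at 16 HPI and 1.67 at 24 HPI. Aif1, also a myeloid marker, was not called by the same test at 16 HPI (adjusted p = 0.43) or 24 HPI (adjusted p = 0.12). The 3 myeloid markers (Ptprc, Cd68, Aif1) summed to between 3.18 and 6.60 CPM, and the 3 endothelial markers (Pecam1, Cdh5, Cldn5) to at most 1.33 CPM. The part of these shifts in the members' values was not tested.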

How the data were processed

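RNA sequencing of FDU-treated eDRG spot cultures gave 18 libraries, 3 for each of 6 groups, grouped by the sample titles. The deposited values are raw counts per gene. The authors trimmed reads with cutadapt, aligned them with STAR to mm10 and counted them on GENCODE genes, without normalising the deposited tables. Their methods name featureCounts, while the submitters' processing notes name HTSeq, whose 5 closing entries end each table. These entries, 25.2% to 33.2% of counts, stayed out of library sizes. Whether counting used strand was not stated.

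Identifiers were named from GENCODE vM21 (47224 of 47643 matched). The 13771 genes that exceeded 1 CPM in 3 libraries or more entered the tests (edgeR 4.0.16 under R 4.3.3), with TMM normalisation and one quasi-likelihood model of time point and replicate number over all libraries, two-sided, with Benjamini-Hochberg adjustment over all genes tested. Standard errors follow from the quasi-likelihood F statistic. RPKM divides normalised CPM by the length of the merged exons. The log2 CPM behind ratios within a replicate number had a prior count of 2. The study corrected counts for batch with edgeR, EDASeq and RUVSeq. Here the replicate number was kept as a block instead, and it pairs the libraries. Deviations from group means correlated at a mean of 0.619 (0.484 to 0.765, 45 pairs) between libraries of one number. The mean of -0.308 between libraries of different numbers is no separate contrast, because deviations from a group mean cancel within the group. Ratios of named gene pairs were compared by exact permutation tests over libraries, without the block. The script was tested on simulated data. Near-identical transcripts are matches of at least 500 bases at 95% identity.

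Members were accounted for by role. Values per library are given for the 12 members with the smallest F test p and for 4 named pairs; of the other lists, up to 2 genes per direction and time point with the largest called change are named. The members, the lists, the motifs and the alternatives were chosen with earlier results of these data known. Alternatives were DESeq2 1.42.0 size factors and Wald test, leaving out residual rRNA and mitochondrial genes, a minimum of 10 counts over all libraries, no replicate block, fitting the compared groups alone, and leaving out each library. The standard errors cover the spread between libraries that is left after time point and replicate number are fitted. Some genes of the marker and pathway lists are not reported here, nor are the sums and counts that contain them.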

Additional observations from a re-analysis of the deposited data

Results flagged for a closer look

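Effects at different time points differed from each other by direct test in several members. Against the values at 8 HPI, 26 members were lower at 16 HPI, beside 7.86% of all genes (edgeR's quasi-likelihood model, Benjamini-Hochberg adjusted). Against those at 16 HPI, 5 were lower at 24 HPI, beside 6.22% of all genes, and 1 was higher, beside 3.59%. The count of 1 higher is near that share and is no result about the members. Of the members, Msmo1 and Insig1 were called higher than control at 8 HPI and lower than control at 16 HPI. The difference between these effects was -0.60 on the log2 scale for Msmo1 (adjusted p = 1.18e-05, lower in 3 of 3 replicates) and -0.53 for Insig1 (adjusted p = 5.18e-05, lower in 3 of 3 replicates). Both genes were picked by those calls in the same libraries. A fall from 8 to 16 HPI was therefore built into the choice, and these values are no separate support for it. Groups of 3 libraries were too small to be searched for outlying libraries.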

How the results depend on the processing

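No value that was called in the main or an alternative run changed sign between them. Sign changes of values called in neither were not counted. The replicate block mattered most: with no replicate block, the members called were 0 higher at 3 HPI, 0 higher at 8 HPI, 0 higher and 5 lower at 16 HPI, 3 lower at 24 HPI, 4 lower from 8 to 16 HPI, and 0 higher and 0 lower from 16 to 24 HPI. Fitting the 2 compared groups alone called 2 higher and 1 lower at 1 HPI, 0 higher at 3 HPI, 1 lower at 8 HPI, 0 higher at 16 HPI and 2 higher from 16 to 24 HPI. The DESeq2 Wald test called 1 lower at 1 HPI, 2 higher at 3 HPI and 2 higher from 16 to 24 HPI. Leaving out residual rRNA and mitochondrial genes called 1 lower at 8 HPI and 2 higher from 16 to 24 HPI, as did DESeq2 size factors and the minimum of 10 counts for the latter (2 and 2). With 1 library left out at a time, members called higher ranged from 0 to 1 at 3 HPI, 4 to 9 at 8 HPI, 0 to 1 at 16 HPI, 0 to 1 from 8 to 16 HPI and 0 to 2 from 16 to 24 HPI, and members called lower from 14 to 18 at 16 HPI, 20 to 23 at 24 HPI, 22 to 25 from 8 to 16 HPI and 2 to 4 from 16 to 24 HPI. The median log2 fold change of the members then ranged from 0.021 to 0.056 at 1 HPI, 0.020 to 0.062 at 3 HPI, 0.075 to 0.122 at 8 HPI, -0.215 to -0.181 at 16 HPI and -0.314 to -0.261 at 24 HPI. The cause of these shifts was not tested. Depth was 9478891 counts or more in each library; with 3 libraries a group, their spread sets what can be called.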

Other observations

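Genes that oxidise or store fatty acids were counted as separate lists. Of 12 tested genes of fatty acid oxidation, 1 was lower at 16 HPI, and 1 was higher and 1 lower at 24 HPI (edgeR's quasi-likelihood model, Benjamini-Hochberg adjusted). These counts are near the shares of all genes called, which were 11.5% lower at 16 HPI and 5.99% higher and 9.03% lower at 24 HPI. Cpt1c, the neuronal carnitine palmitoyltransferase, was at -0.22 ± 0.0646 on the log2 scale at 16 HPI (adjusted p = 0.0158). At 24 HPI Cpt1a, which admits fatty acids to mitochondria, was at -0.42 ± 0.0713 (adjusted p = 0.000477), and Slc25a20, the carnitine carrier, at 0.31 ± 0.0737 (adjusted p = 0.00691).

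Of 11 tested genes of glycerolipids and lipid droplets, 1 was higher at 8 HPI, 3 were higher and 1 lower at 16 HPI, and 1 was higher and 1 lower at 24 HPI. Of all genes, 3.78% were higher at 8 HPI and 10.7% higher and 11.5% lower at 16 HPI, so the count lower at 16 HPI and those at 24 HPI are near background. Dgat2, which makes triglyceride, was higher at 8 HPI (0.30 ± 0.0812, adjusted p = 0.0254) and 16 HPI (0.48 ± 0.0803, adjusted p = 0.000153) and near control at 24 HPI (-0.01, adjusted p = 0.954). Lpin2 was higher at 16 HPI (0.25 ± 0.0644, adjusted p = 0.00676), and Plin2, which coats lipid droplets, at 24 HPI (0.37 ± 0.0615, adjusted p = 0.000329). Mgll, a monoacylglycerol lipase, was lower at 16 HPI (-0.21 ± 0.0761, adjusted p = 0.0475), and Gpam, the first acyltransferase of glycerolipid synthesis, at 24 HPI (-0.20 ± 0.0619, adjusted p = 0.0343).

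Of 8 tested genes of LXR signalling, sterol export, oxysterols and esterification, 1 was called lower at 8 HPI, 2 were at 16 HPI and 1 was at 24 HPI, beside 3.90%, 11.5% and 9.03% of all genes. The exporter Abcg1 was lower at 8 HPI (-0.27 ± 0.0558, adjusted p = 0.00461) and 16 HPI (-0.35 ± 0.0553, adjusted p = 9.39e-05), the related Abcg4 at 16 HPI (-0.27 ± 0.0683, adjusted p = 0.00622), and Abca1 at 24 HPI (-0.59 ± 0.0873, adjusted p = 0.000117).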
